A study of Mus musculus with 6 samples.

Results

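The genes described here encode the nuclear subunits of the mitochondrial respiratory chain and of ATP synthase. They were chosen by symbol alone, as the protein-coding genes whose names start with Ndufa, Ndufb, Ndufc, Ndufs, Ndufv, Uqcr, Cox4, Cox5, Cox6, Cox7, Cox8 or Atp5, together with Sdha, Sdhb, Sdhc, Sdhd and Cyc1. This rule found 97 of 21887 protein-coding genes on the autosomes and sex chromosomes of mouse GRCm38. They were 41 complex I subunits, 8 complex I assembly factors named Ndufaf, 4 complex II subunits, 9 complex III subunits, 18 complex IV subunits and 17 genes of ATP synthase. Subunits encoded by mitochondrial DNA are outside the rule.

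Open chromatin was mapped with ATAC-seq, which reads where the Tn5 transposase can reach DNA, in islets of 16-week-old mice that were infected with adenovirus for 48 h in culture. The knockout-Acsl4 group was islets of βRicKO mice, labelled as lacking Rictor in beta cells, with a virus carrying Acsl4. The knockout-GFP group was βRicKO islets with a GFP virus, and the control-GFP group was wild-type islets with the same GFP virus. Each group had 2 libraries of about 50 islets each. Culture and viral infection were thus common to every group. Strain, sex, the Cre driver and whether each library is from its own mouse are not given here, so a p-value measures only the spread between these libraries, which may be technical. In whole islets, a peak lost from a cell type and a smaller share of that cell type cannot be told apart.

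Complexes I to IV of the inner mitochondrial membrane pass electrons from NADH and succinate to oxygen and, except for complex II, pump protons. ATP synthase uses the proton gradient to make ATP. In beta cells, the ATP made from glucose closes potassium channels and so couples blood glucose to insulin release, and complexes I and III are also known sources of reactive oxygen species. Most of these subunits are encoded by nuclear genes used in nearly every cell type, while a few complex IV subunits have alternative isoforms of heart, muscle, lung or testis.

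The deposited lists held 525 and 5874 peaks in knockout-Acsl4 1 and 2, 2206 and 4257 in knockout-GFP 1 and 2, and 4442 and 1628 in control-GFP 1 and 2. A gene was called marked in a library when a peak overlapped the 1000 bp on either side of its annotated start or end, called gene ends here. Only 5.29% of the peaks of knockout-Acsl4 2 and 21.7% of those of control-GFP 2 lay at gene ends, against 35.8% in knockout-Acsl4 1 and 67.2% to 75.5% in both knockout-GFP libraries and control-GFP 1. Rictor had no peak at a gene end in any library, Acsl4 had one in control-GFP 1 alone and Foxo1 in control-GFP 2 alone, so these peaks do not check the genotype or the virus. Of 12 beta cell markers, 0 were marked in either knockout-Acsl4 library, 0 and 2 in knockout-GFP 1 and 2, and 2 and 0 in control-GFP 1 and 2. None of 6 markers of other endocrine cells, 6 of acinar and duct cells and 8 of endothelial, stromal and immune cells was marked in any library, so the lists do not show which cells were present.

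Of the 97 genes, 40 (41.2%) were marked in at least 1 library, against 24.5% of all protein-coding genes, and 57 were marked in none. The most often marked were Ndufb5, an accessory subunit of the membrane arm of complex I, and Atp5j (also Atp5pf), coupling factor 6 of the ATP synthase stalk, each in 4 libraries. A further 7 were marked in 3 libraries: Ndufa5 and Ndufa11 of complex I, Sdhb of complex II, Uqcrq and Uqcrb of complex III, and Atp5b and Atp5g1 of ATP synthase. The 9 members marked in at least 3 libraries were 9.28% of the members, against 6.52% of all genes. Those marked in at least 4 were 2.06%, against 1.62%. No member was marked in 5 or 6 libraries, and only 0.206% and 0.0137% of all genes were. Every one of the 40 was marked in at least 1 of knockout-GFP 1, knockout-GFP 2 and control-GFP 1, the libraries with most gene-end peaks. This was near the background, since only 1.18% of all genes were marked solely in the other libraries.

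The DNA just upstream of 6 of these recurrently marked genes is shown because their peaks lie on or beside it, together with that of Atp5g3, which was marked in no library although it encodes the same mature c subunit of ATP synthase as Atp5g1. Each run holds the 250 bases before a start annotated by RefSeq in GRCm38.p6, written 5′ to 3′ on the gene's strand. Capitals mark matches, on either strand, to CGCATGCG (the core of the NRF1 motif), CCGGAAG (ETS factors, including GABPA), AAGATGG (YY1), GGGCGG (SP and KLF factors), CCAAT (NFY) and TGACG (the core of the CRE). A TGACG match on both strands can overlap itself, as can CCAAT.
Atp5j, chr16:84834977-84835226, minus strand: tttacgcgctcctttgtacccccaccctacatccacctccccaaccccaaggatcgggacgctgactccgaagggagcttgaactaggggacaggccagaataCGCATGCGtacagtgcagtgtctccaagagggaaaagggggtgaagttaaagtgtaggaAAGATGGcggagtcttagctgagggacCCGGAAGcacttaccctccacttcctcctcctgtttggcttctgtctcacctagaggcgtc
Ndufb5, chr3:32736813-32737062, plus strand: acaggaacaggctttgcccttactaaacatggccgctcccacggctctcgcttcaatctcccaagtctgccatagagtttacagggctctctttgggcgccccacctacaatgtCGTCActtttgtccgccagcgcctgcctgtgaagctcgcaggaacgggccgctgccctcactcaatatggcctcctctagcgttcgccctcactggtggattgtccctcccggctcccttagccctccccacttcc
Ndufa11, chr17:56717512-56717761, plus strand: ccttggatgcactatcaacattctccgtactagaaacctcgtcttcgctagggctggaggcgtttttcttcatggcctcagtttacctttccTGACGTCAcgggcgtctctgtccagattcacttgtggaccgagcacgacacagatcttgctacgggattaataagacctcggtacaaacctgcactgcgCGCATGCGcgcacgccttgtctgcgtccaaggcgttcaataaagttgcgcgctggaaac
Sdhb, chr4:140961021-140961270, plus strand: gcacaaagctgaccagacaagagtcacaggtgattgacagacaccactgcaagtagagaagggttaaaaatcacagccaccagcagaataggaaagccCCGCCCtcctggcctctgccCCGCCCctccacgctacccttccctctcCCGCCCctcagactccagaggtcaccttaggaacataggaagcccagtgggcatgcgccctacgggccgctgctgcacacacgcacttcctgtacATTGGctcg
Atp5b, chr10:128083057-128083306, plus strand: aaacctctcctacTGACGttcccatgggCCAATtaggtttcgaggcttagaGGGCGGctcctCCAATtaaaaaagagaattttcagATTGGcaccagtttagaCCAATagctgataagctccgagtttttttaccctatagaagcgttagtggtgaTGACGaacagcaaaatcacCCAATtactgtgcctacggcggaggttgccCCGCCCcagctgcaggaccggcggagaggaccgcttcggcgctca
Atp5g1, chr11:96075632-96075881, minus strand: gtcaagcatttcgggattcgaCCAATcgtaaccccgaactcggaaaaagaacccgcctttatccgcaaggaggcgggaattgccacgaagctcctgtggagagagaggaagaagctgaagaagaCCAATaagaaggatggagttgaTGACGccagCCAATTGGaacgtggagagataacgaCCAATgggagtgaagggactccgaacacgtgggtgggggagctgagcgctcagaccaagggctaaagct
Atp5g3, chr2:73911327-73911576, minus strand: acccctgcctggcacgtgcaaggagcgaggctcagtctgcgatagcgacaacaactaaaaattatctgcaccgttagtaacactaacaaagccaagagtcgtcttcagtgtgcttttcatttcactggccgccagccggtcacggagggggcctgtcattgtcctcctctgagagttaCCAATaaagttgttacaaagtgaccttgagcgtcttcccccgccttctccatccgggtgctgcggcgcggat

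The Atp5j stretch held 1 match each to the NRF1 core, at bases -147 to -140 from the annotated start at 84834976, to the YY1 motif at -88 to -82 and to the ETS motif at -61 to -55. The peaks of knockout-GFP 2 and control-GFP 1 covered all 3 matches, that of control-GFP 2 covered the YY1 and ETS matches, and the narrower peak of knockout-Acsl4 1 covered none. Atp5j has a further annotated start at 84835625, whose stretch is not shown. That stretch held no match to these 3 motifs, and its GGGCGG match lay in none of the 4 peaks. The Ndufa11 stretch held an NRF1 core at -59 to -52, and none of its 3 peaks reached it. The Atp5g1 stretch held 5 CCAAT matches, and the peaks of knockout-GFP 1, knockout-GFP 2 and control-GFP 1 covered all of them. The Atp5b stretch also held 5, each covered by 2 or 3 of its 3 peaks, and the Sdhb stretch held 1, covered by all 3 of its peaks. The stretch of the unmarked Atp5g3 held 1, and those of the marked Atp5j, Ndufb5 and Ndufa11 held none. Sdhb had 3 matches to GGGCGG, of which the one at -104 to -99 lay inside the peaks of knockout-GFP 1 and control-GFP 1.

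RefSeq's promoter table, whose entries span 250 bases before to 50 after a start, matched 78 of the 97 members, with 83 entries. The NRF1 core was in 13.3% of the members' entries, against 2.52% of all 21263 entries of protein-coding genes. It was in 7 of 39 entries (17.9%) of members marked in any library and in 4 of 44 (9.09%) of members marked in none. The ETS motif was in 22.9% of the members' entries, against 11.6% of all, with 23.1% in marked and 22.7% in unmarked members. The YY1 motif was in 14.5%, against 6.24% of all, with 10.3% in marked and 18.2% in unmarked members. Among all genes, the NRF1 core was in 5.36% of entries of marked and 1.53% of those of unmarked ones. The ETS motif was in 18.5% and 9.16% and the YY1 motif in 7.84% and 5.68%.

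Of the commoner motifs, GGGCGG was in 43.4% of the members' entries, against 46.2% of all entries, CCAAT in 42.2%, against 38.2%, and TGACG in 36.1%, against 23.6%. Among all genes, marked ones had GGGCGG in 68.4% and unmarked ones in 38.5% of entries, while marked members had it in 48.7% and unmarked members in 38.6%. For TGACG these were 35.8% and 19.4% among all genes and 41.0% and 31.8% among members. For CCAAT they were 44.8% and 35.9% among all genes and 46.2% and 38.6% among members. In the 9 entries of members marked in 3 or more libraries, CCAAT was in 3 and TGACG in 6. The median GC content was 60.0% in entries of marked members and 56.8% in those of unmarked members, with 22 and 17.5 CG pairs. Among all genes it was 62.3% in entries of marked and 54.0% in those of unmarked ones, with 23 and 8 CG pairs. A match is a run of letters and does not show a bound factor.

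The share of the 97 genes that was marked was highest in the 3 libraries with most gene-end peaks. It was 2 of 97 (2.06%, exact Clopper-Pearson 95% interval 0.251 to 7.25) in knockout-Acsl4 1, against 1.02% of all protein-coding genes, and 0 of 97 in knockout-Acsl4 2 (interval up to 3.73), against 1.58%. It was 15 of 97 (15.5%, 8.92 to 24.2) in knockout-GFP 1, against 8.20%, and 27 of 97 (27.8%, 19.2 to 37.9) in knockout-GFP 2, against 17.3%. It was 23 of 97 (23.7%, 15.7 to 33.4) in control-GFP 1, against 16.7%, and 4 of 97 (4.12%, 1.13 to 10.2) in control-GFP 2, against 2.00%. The members' share was thus 1.42 to 2.07 times that of all other genes in the 5 libraries where any member was marked. The interval lay above the background in knockout-GFP 1 and 2 and included it in the other libraries. Intervals cover counting error only.

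**Figure D1:**
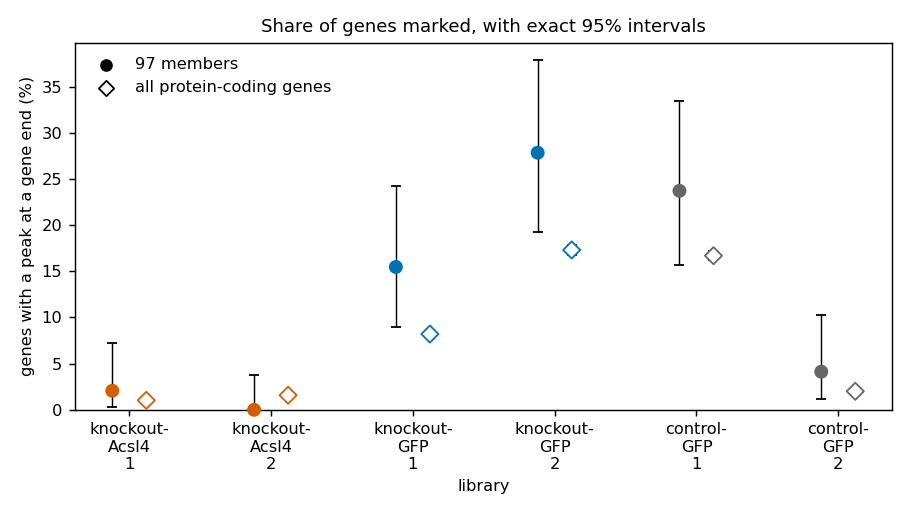
Percent of genes with a peak within 1000 bp of a gene end in each library, for the 97 members (filled circles) and for all 21887 protein-coding genes (open diamonds), with exact 95% intervals that cover counting error only. The circles range from 0% in knockout-Acsl4 2 to 27.8% in knockout-GFP 2. They lie above the diamonds in every library except knockout-Acsl4 2.

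Complex I takes electrons from NADH. Of its 41 subunit genes, 1 and 0 were marked in knockout-Acsl4 1 and 2, 5 and 10 in knockout-GFP 1 and 2, and 7 and 1 in control-GFP 1 and 2. These were 12.2% and 24.4% in knockout-GFP 1 and 2 and 17.1% in control-GFP 1, against 8.20%, 17.3% and 16.7% of all genes, and each exact 95% interval included the share of all genes. Ndufb5 (chromosome 3, 32737057 to 32751559) had peaks with scores of 2.73 and 12.1 in knockout-GFP 1 and 2 and of 5.14 and 6.52 in control-GFP 1 and 2, and none in knockout-Acsl4. The score is the −log10 q-value of the peak in its own list, so it ranks peaks within a library only. The strongest of these ranked at the 90.8th percentile of control-GFP 2 and the weakest at the 19.9th of knockout-GFP 1, and all 4 peaks overlapped each other in every pair of libraries.

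Ndufa5, an accessory subunit of the matrix arm (chromosome 6, 24518662 to 24527690), had scores of 2.76 and 7.75 in knockout-GFP 1 and 2 and of 12.7 in control-GFP 1. Ndufa11, an accessory subunit of the membrane arm (chromosome 17, 56717762 to 56724248), had a score of 3.0 in knockout-Acsl4 1, 4.77 in knockout-GFP 2 and 7.60 in control-GFP 1. Its peaks were centred at -566.5 to -714.5 bp from the annotated start, farther than those of any other member with a known strand, and also lay at an end of the neighbouring gene Vmac.

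Core subunits of complex I, which carry its flavin and iron-sulfur clusters, were marked in at most 2 libraries. This is near the background, since only 6.52% of all genes were marked in 3 or more. Ndufs8, an iron-sulfur subunit, had scores of 5.39 and 3.58 in knockout-GFP 1 and 2 and no peak elsewhere. Ndufv2 had scores of 5.66 in knockout-GFP 2 and 8.53 in control-GFP 1. Ndufs7, next to the quinone site, and Ndufv1, which binds NADH and the flavin, were marked in knockout-GFP 1 alone, with scores of 4.39 and 3.68. Ndufs1 and Ndufs3 were marked in none. Ndufb1, an accessory subunit, was marked in knockout-GFP 2 and control-GFP 1 with scores of 2.15 and 3.89. Ndufa4, which later work places in complex IV, had the highest complex I-named score of control-GFP 1 at 14.6 and no peak in another library.

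Assembly factors of complex I build it without staying in it. Of the 8 named Ndufaf, 0 were marked in either knockout-Acsl4 library, 3 and 1 in knockout-GFP 1 and 2, and 4 and 0 in control-GFP 1 and 2. These were 37.5% and 12.5% in knockout-GFP 1 and 2 and 50% in control-GFP 1, on both sides of the 8.20%, 17.3% and 16.7% of all genes. Ndufaf8 had scores of 10.3 in knockout-GFP 2 and 7.52 in control-GFP 1. Ndufaf3 and Ndufaf5 were marked in knockout-GFP 1 and control-GFP 1 with scores between 2.96 and 3.6, Ndufaf2 in control-GFP 1 alone with 7.90 and Ndufaf4, a partner of Ndufaf3, in knockout-GFP 1 alone with 4.82.

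Complex II, succinate dehydrogenase, belongs to both the citrate cycle and the chain. Its iron-sulfur subunit Sdhb (chromosome 4, 140961271 to 140979198) had scores of 4.84 and 6.65 in knockout-GFP 1 and 2 and of 7.11 in control-GFP 1, at the 52.9th to 61.1st percentile of their lists. The peaks covered the annotated start. The flavoprotein Sdha was marked in knockout-GFP 2 alone with 4.0, and the membrane anchor Sdhd in control-GFP 1 alone with 1.40, close to the smallest value in that list of 1.31. The other anchor, Sdhc, was marked in none.

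Complex III, the cytochrome bc1 complex, hands electrons from quinol to cytochrome c. It had 0 marked genes of 9 in both knockout-Acsl4 libraries, 2 and 6 in knockout-GFP 1 and 2, and 3 and 1 in control-GFP 1 and 2. The share in knockout-GFP 2 was 66.7% (exact 95% interval 29.9 to 92.5), against 17.3% of all genes, while the intervals in the other libraries included the share of all genes, 1.02% and 1.58% in knockout-Acsl4. The small subunit Uqcrq (chromosome 11, 53427922 to 53430831) had scores of 4.50 and 14.8 in knockout-GFP 1 and 2 and of 11.0 in control-GFP 1. Uqcrb, a subunit that contacts the quinone-binding region (chromosome 13, 66900576 to 66905350), had 2.33 in knockout-GFP 2 and 5.83 and 2.58 in control-GFP 1 and 2. Both therefore had a peak in each group except knockout-Acsl4.

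A further 3 complex III genes were marked in knockout-GFP 2 alone. They were the core protein Uqcrc1 (4.0), the Rieske iron-sulfur protein Uqcrfs1 (3.57) and the hinge protein Uqcrh (4.02), all below the 28th percentile of that list. The other core protein, Uqcrc2, was marked in control-GFP 1 alone (4.76), and Cyc1, cytochrome c1, and Uqcr11 in none. Uqcr10 had scores of 6.36 and 2.16 in knockout-GFP 1 and 2. Its peaks spanned chr11:4704540-4704682 and chr11:4704369-4704539, so they abutted and did not overlap, unlike those of the other 19 members marked in 2 or more libraries.

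Complex IV, cytochrome c oxidase, was the least marked complex by share in knockout-GFP 2 and control-GFP 1. It had 0 of 18 in both knockout-Acsl4 libraries, 2 and 1 in knockout-GFP 1 and 2, and 1 in each control-GFP library (5.56%, exact 95% interval 0.141 to 27.3). The interval, the same in knockout-GFP 2, included the 17.3% and 16.7% of all genes marked in knockout-GFP 2 and control-GFP 1, so a lower share than that of all genes was not detectable with 18 genes. Cox5b and Cox6a1 were marked in knockout-GFP 1 alone, with scores of 7.01 and 4.90. Cox8a had 4.75 in knockout-GFP 2 and 2.77 in control-GFP 2, and Cox7a2l, a factor that joins complexes III and IV, had 4.85 in control-GFP 1. No complex IV gene was marked in 3 or more libraries, where 6.52% of all genes were, so 0 among 18 genes is near the background.

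None of the 8 alternative isoforms was marked in any library, where 24.5% of all genes were marked in at least 1, so few or no marks among 8 genes is near the background. They were Cox4i2, Cox6a2, Cox6b2, Cox7a1, Cox7b2, Cox8b, Cox8c and Ndufa4l2. Of their 7 widely expressed partners, Cox6a1, Cox8a and Ndufa4 were marked in 1 or 2 libraries, and Cox4i1, Cox6b1, Cox7a2 and Cox7b were not. Cox7a2 had a peak in knockout-GFP 1 (chr9:79759737-79759932, score 2.78) and in knockout-GFP 2 (chr9:79759803-79759917, score 3.10), centred 18.5 bp inside and 7 bp upstream of its start in the promoter table. The gene table extends Cox7a2 to 79771422, so these peaks are not at a gene end by the rule.

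ATP synthase had 1 and 0 marked genes of 17 in knockout-Acsl4 1 and 2, 2 and 7 in knockout-GFP 1 and 2, and 6 and 1 in control-GFP 1 and 2. The shares were 11.8% and 41.2% in knockout-GFP 1 and 2 and 35.3% in control-GFP 1, against 8.20%, 17.3% and 16.7% of all genes, and only the interval in knockout-GFP 2 (18.4 to 67.1) lay above the share of all genes. Atp5g1, a gene for the c ring (chromosome 11, 96072793 to 96075694), had scores of 9.99 and 23.4 in knockout-GFP 1 and 2 and of 10.9 in control-GFP 1. These ranked at the 91.1st, 96.7th and 79.7th percentile, and the 23.4 was the highest score of any member. Atp5g2, a further gene for the same mature c subunit, had 8.73 in knockout-GFP 2 and 3.83 in control-GFP 1.

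Among the catalytic subunits, Atp5b, which encodes the beta subunit (chromosome 10, 128083307 to 128090388), had scores of 10.1 and 8.55 in knockout-GFP 1 and 2 and of 3.57 in control-GFP 1. The alpha subunit gene Atp5a1 was marked in none. The gamma subunit gene Atp5c1 and the stalk gene Atp5pb were each marked in knockout-GFP 2 and control-GFP 1, with 5.02 and 8.25 for Atp5c1 and 9.48 and 5.16 for Atp5pb. Atp5e, the epsilon subunit, had 7.66 in knockout-GFP 2 alone. Atp5j (chromosome 16, 84827871 to 84835857) had 3.28 in knockout-Acsl4 1, 8.66 in knockout-GFP 2, and 8.64 and 5.69 in control-GFP 1 and 2, and was the only member marked in all 3 groups besides Ndufa11.

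**Figure D2:**
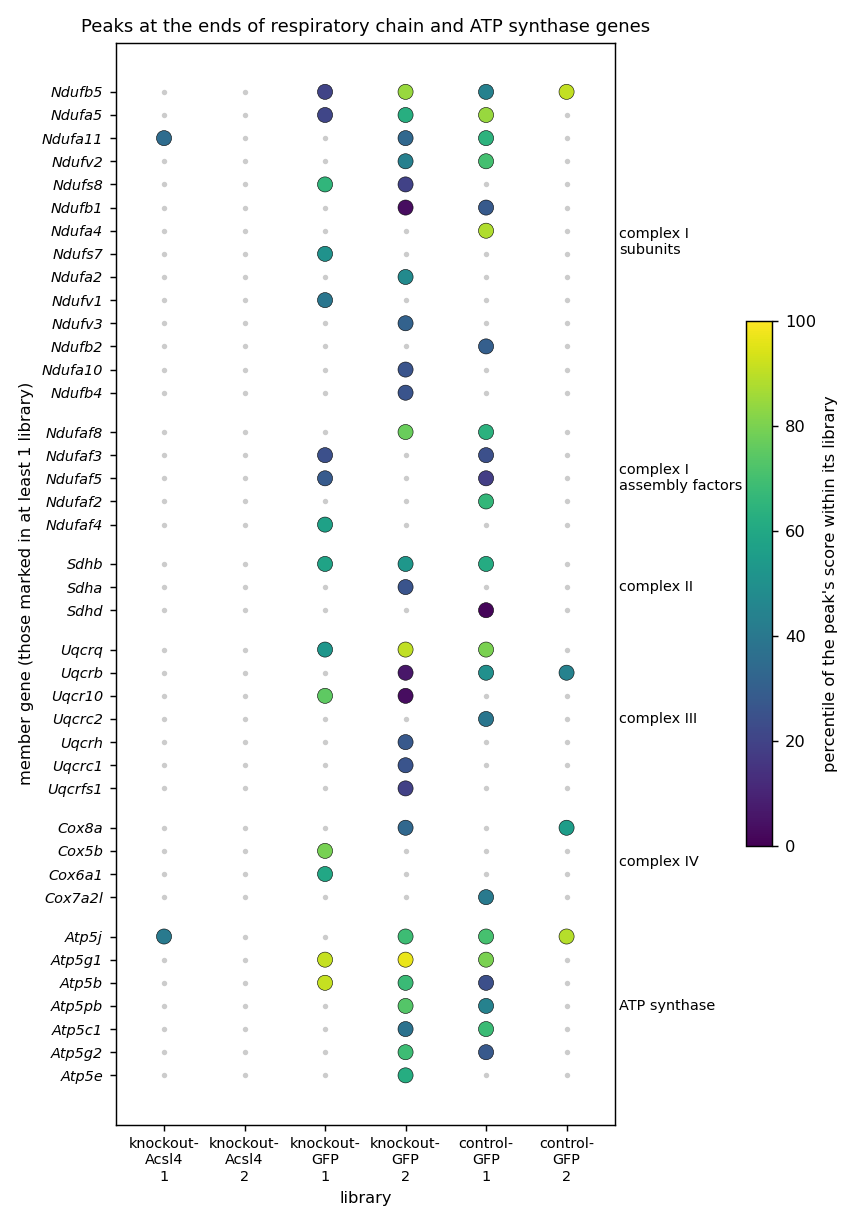
The 40 members marked in at least 1 library (rows, by complex) in the 6 libraries (columns). A large circle is a peak, coloured by the percentile of its score within its library, and a small grey dot is no peak. Knockout-Acsl4 1 has 2 circles and knockout-Acsl4 2 has none.

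**Figure D3:**
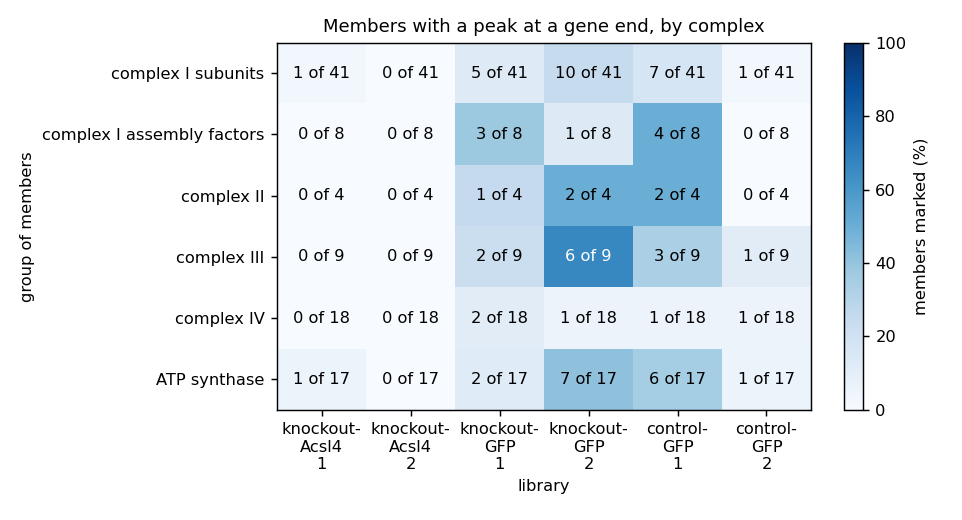
Number of marked members of each complex in each library, with the share in percent as shading. The highest share is 6 of 9 complex III genes in knockout-GFP 2, and complex IV has at most 2 of 18 in any library.

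Where the strand was known, member peaks sat at gene starts. All 63 peaks of members whose strand is known from the promoter table lay at the gene's start and 0 at the far end only, and 57 were centred within 250 bp of an annotated start. The median centre was at -106 bp from the start. The same positions for all gene-end peaks are not given here, so these values do not set the members apart from other genes. Widths ran from 86 to 529 bp with a median of 212 bp. The median percentile of the members' scores was 37.9 in knockout-Acsl4 1, 57.3 and 37.6 in knockout-GFP 1 and 2, and 49.9 and 72.04 in control-GFP 1 and 2. For all gene-end peaks it was 42.1 in knockout-Acsl4 1, 53.2 and 51.9 in knockout-GFP 1 and 2, and 54.0 and 64.5 in control-GFP 1 and 2. The members' peaks thus ranked lower than other gene-end peaks in 3 of the 5 libraries and higher in 2.

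**Figure D4:**
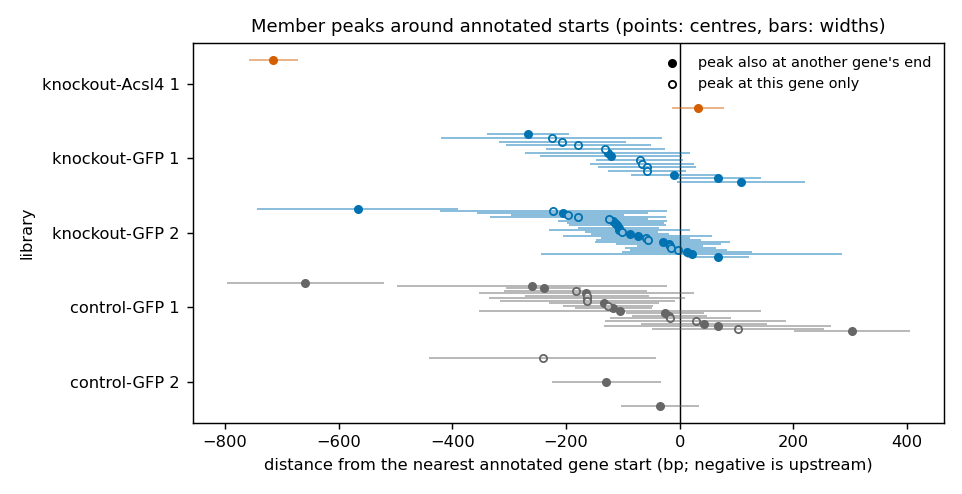
Distance in bp from the nearest annotated start to the centre (point) and edges (bar) of each of the 63 member peaks with a known strand, by library. Filled points are peaks that also lie at another gene's end, and the 3 peaks farthest upstream belong to Ndufa11.

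Close neighbours were common. Of the 97 members, 55 (56.7%) had an end of another protein-coding gene within 1000 bp of their own, against 24.8% of all protein-coding genes. The neighbours include Gabpa beside Atp5j, which encodes the DNA-binding subunit of an activator of respiratory genes, the mitochondrial ribosomal protein gene Mrpl47 beside Ndufb5, the import factor Timm8b beside Sdhd, and Wdr77 beside Atp5pb. A single peak then marks both genes: 44 of the 71 member peaks (counted per library) also lay at another gene's end, and 22 of the 40 marked members had such a peak. This was 17 of 27 member peaks (63.0%) in knockout-GFP 2, against 20.4% of all its gene-end peaks, and 15 of 23 (65.2%) in control-GFP 1, against 19.0%.

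The members were also set beside genes with the same kind of neighbourhood. Of members with such a neighbour, 16.4% and 34.5% were marked in knockout-GFP 1 and 2 and 32.7% in control-GFP 1, against 15.0%, 30.6% and 27.4% of all genes with one. Of the 42 members without one, 14.3% and 19.0% were marked in knockout-GFP 1 and 2 and 11.9% in control-GFP 1, against 5.96%, 12.9% and 13.2%. When peaks at several genes were left out, a choice made after seeing the data, 8.25% and 10.3% of members were marked in knockout-GFP 1 and 2 and 8.25% in control-GFP 1, against 5.20%, 11.5% and 11.3% of all genes. The part of neighbours in the members' share was not tested further.

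**Figure D5:**
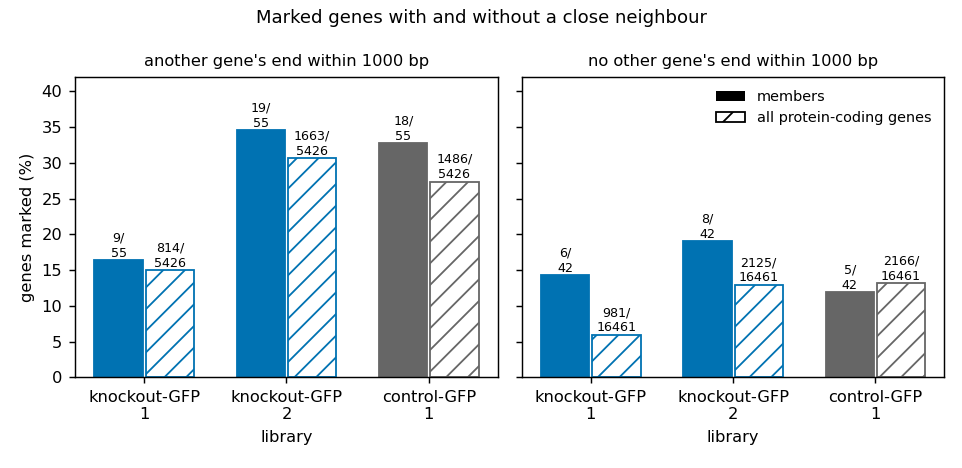
Percent of genes marked in knockout-GFP 1, knockout-GFP 2 and control-GFP 1 among genes with (left) and without (right) an end of another protein-coding gene within 1000 bp, for members (filled bars) and all protein-coding genes (hatched bars), with counts above the bars. Members with a close neighbour reach 34.5% in knockout-GFP 2 and members without one 19.0%.

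Among the 3 libraries with most gene-end peaks, pairs shared a smaller part of their marked members than of their marked genes in general. Knockout-GFP 1 and 2 shared 8 members, which were 53.3% of the 15 in knockout-GFP 1 and 29.6% of the 27 in knockout-GFP 2, against 80.6% and 38.2% for all genes. Knockout-GFP 2 and control-GFP 1, of different groups, shared 15 members, or 55.6% and 65.2% of each, against 67.1% and 69.6%. Knockout-GFP 1 and control-GFP 1 shared 8, or 53.3% and 34.8%, against 75.7% and 37.2%. The 2 control-GFP libraries shared 3 members, Atp5j, Ndufb5 and Uqcrb, or 13.0% and 75% of each, against 9.53% and 79.5%. Both members of knockout-Acsl4 1 were also marked in knockout-GFP 2 and in control-GFP 1. In 6 members (6.19%) all of knockout-GFP 1, knockout-GFP 2 and control-GFP 1 had a peak, against 5.53% of all genes. These were Atp5b, Atp5g1, Ndufa5, Ndufb5, Sdhb and Uqcrq.

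Rictor loss at these promoters is addressed by setting knockout-GFP beside control-GFP. Of the 97 genes, 21.6% ± 8.75 were marked in knockout-GFP and 13.9% ± 13.9 in control-GFP (SD, n = 2 each), a difference of 7.73 percentage points that was smaller than the spread within control-GFP (two-sided exact permutation p = 0.667, where 0.333 is the smallest possible). All genes differed by 3.41 points, 12.8% against 9.34%. Ndufs8 and Uqcr10 were marked in both knockout-GFP libraries and neither control-GFP library, which is 2.06% of the members, against 1.04% of all genes. No member had the reverse pattern, against 0.0914% of all genes. The difference in share turned to -2.06 points without control-GFP 2 and was 17.5 without control-GFP 1, 13.9 without knockout-GFP 1 and 1.55 without knockout-GFP 2.

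With 2 libraries against 2, no difference by complex could reach a p below 0.333. Complex III had 44.4% ± 31.4 marked in knockout-GFP and 22.2% ± 15.7 in control-GFP, complex I subunits 18.3% ± 8.62 and 9.76% ± 10.3, complex II 37.5% ± 17.7 and 25.0% ± 35.4, and ATP synthase 26.5% ± 20.8 and 20.6% ± 20.8 (SD, n = 2 each). Complex IV had 8.33% ± 3.93 in knockout-GFP and 5.56% in both control-GFP libraries, and the assembly factors averaged 25.0% in both groups. The exact permutation p was 0.667 or 1 for each of these 6 groups of genes. Of the 2 genes marked in knockout-GFP only, Ndufs8 reached the 65.5th and 19.6th percentile and Uqcr10 the 75.3rd and 3.43rd in knockout-GFP 1 and 2. The number of such members was 7 without knockout-GFP 2, 11 without knockout-GFP 1 and 7 without control-GFP 1, and that of the reverse pattern was 6 without control-GFP 2 and 2 without knockout-GFP 2. Leaving out a library loosens the pattern for every gene. The shares of all genes are not given here for that setting, so these counts are no result about the members.

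The effect of adding Acsl4 to βRicKO islets is addressed by knockout-Acsl4 beside knockout-GFP. Of the 97 genes, 1.03% ± 1.46 were marked in knockout-Acsl4 and 21.6% ± 8.75 in knockout-GFP (SD, n = 2 each), a difference of -20.6 points with the smallest exact permutation p this design allows (0.333). The same held for all genes, at 1.3% and 12.8%, a difference of -11.5 points. No member was marked in both knockout-Acsl4 libraries and neither knockout-GFP library, a pattern shown by 0.00914% of all genes. The reverse pattern was found in 8 members (8.25%), against 5.79% of all genes, and these were all 8 members marked in both knockout-GFP libraries: Atp5b, Atp5g1, Ndufa5, Ndufb5, Ndufs8, Sdhb, Uqcr10 and Uqcrq. Among protein-coding genes in general, it held for 1267 of 1447 with peaks in both knockout-GFP libraries.

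The number of peaks at gene ends, over all genes, was 188 and 311 in knockout-Acsl4 1 and 2, against 1483 and 3214 in knockout-GFP 1 and 2. In total, the lists held 525 and 5874 peaks in knockout-Acsl4 1 and 2 and 2206 and 4257 in knockout-GFP 1 and 2. Knockout-Acsl4 thus had both the shortest and the longest list. When every list was cut to its 525 highest scores, 2 and 0 members were marked in knockout-Acsl4 1 and 2 and 3 and 2 in knockout-GFP 1 and 2, and the difference was -1.55 points (exact permutation p = 0.667). The shares of all genes were then 1.02% and 0.0868% in knockout-Acsl4 1 and 2 and 1.9% and 1.92% in knockout-GFP 1 and 2. Without knockout-GFP 1 or 2, the members marked in knockout-GFP only numbered 25 or 15, under a pattern that is looser for every gene. The share of all genes with it is not given here. The part of list lengths and gene-end peak numbers in the difference beyond these values was not tested.

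Setting knockout-Acsl4 beside control-GFP combines both changes. The members' share was 1.03% ± 1.46 in knockout-Acsl4 and 13.9% ± 13.9 in control-GFP (SD, n = 2 each), a difference of -12.9 points (exact permutation p = 0.333, the smallest possible) beside -8.04 points for all genes. No member was marked in both knockout-Acsl4 libraries and neither control-GFP library, against 0.00457% of all genes. Ndufb5 and Uqcrb had the reverse pattern, 2.06% of the members against 1.32% of all genes, and Atp5j, the remaining member marked in both control-GFP libraries, also had a peak in knockout-Acsl4 1. The difference was -3.09 points without control-GFP 1 and -22.7 without control-GFP 2, and 0 when every list was cut to 525 peaks. With this cut, 2 and 0 members were marked in knockout-Acsl4 1 and 2 and 0 and 2 in control-GFP 1 and 2. The shares of all genes were 1.02% and 0.0868% in knockout-Acsl4 1 and 2 and 1.91% and 0.877% in control-GFP 1 and 2 at this cut. Members marked in control-GFP only then numbered 0, and 21 without control-GFP 2, where the pattern is looser for every gene. The shares of all genes with it are not given here. The last 2 comparisons share the knockout-Acsl4 libraries, and the first shares a group with each of them.

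Other genes of oxidative metabolism were also marked, on lists drawn up with earlier results of these data known. The shares of all genes to set beside them are 1.02% and 1.58% in knockout-Acsl4 1 and 2, 8.20% and 17.3% in knockout-GFP 1 and 2, 16.7% and 2.00% in control-GFP 1 and 2, and 24.5% in at least 1 library. At least 1 library marked 44.2% of the assembly factors, 61.5% of the citrate cycle genes, 71.4% of the regulators and 62.5% of the carrier and quinone genes below. Of 43 further assembly factors, 0 and 1 were marked in knockout-Acsl4 1 and 2, 11 and 16 in knockout-GFP 1 and 2, and 12 and 1 in control-GFP 1 and 2. Cox18, which inserts a complex IV subunit into the membrane, was marked in 4 libraries, and Cox20, Coa7, Pet100, Lyrm7, Ecsit, Foxred1 and Tmem126b in 3. Of 13 citrate cycle genes, 1 and 1, 2 and 7, and 6 and 0 were marked in the same order of libraries, with Ogdh, a subunit of the 2-oxoglutarate dehydrogenase complex, marked in 4 that include knockout-Acsl4 1.

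Of 14 regulators of nuclear respiratory genes, 1 and 0 were marked in knockout-Acsl4 1 and 2, 6 and 8 in knockout-GFP 1 and 2, and 5 and 3 in control-GFP 1 and 2. Gabpa, by the peak it shares with Atp5j, Sp1 and Tfb1m, a methyltransferase of mitochondrial ribosomal RNA, were each marked in 4 libraries. Nrf1 was marked in knockout-GFP 1 alone and Tfam, the packaging factor of mitochondrial DNA, in knockout-GFP 2 alone. Of 16 electron carrier and quinone synthesis genes, 0 were marked in both knockout-Acsl4 libraries, 4 and 9 in knockout-GFP 1 and 2, and 5 and 2 in control-GFP 1 and 2. Etfdh, which feeds electrons from fatty acid oxidation to quinone, was marked in 4, and Cycs, which encodes cytochrome c, and Coq7 in 3.

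The 78 mitochondrial ribosomal protein genes (Mrpl and Mrps), a further nuclear-encoded mitochondrial family, gave shares like those of the respiratory chain. They were marked at 2.56% and 1.28% in knockout-Acsl4 1 and 2, 15.4% and 33.3% in knockout-GFP 1 and 2, and 25.6% and 6.41% in control-GFP 1 and 2. The respiratory chain genes had 2.06% and 0%, 15.5% and 27.8%, and 23.7% and 4.12% in the same libraries.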

How the data were processed

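ATAC-seq libraries of mouse islets, 2 in each of 3 groups taken from the sample titles, were analysed from a peak list per library, deposited by the authors without a header. MACS2 2.1.1, BWA 0.7.10, Trimmomatic, SAMtools and FastQC appear, without settings, per the submitters' processing notes. The deposited value of each peak was read as −log10 of its q-value, because its minimum lies just above 1.3, the −log10 of 0.05, in every list. It is the authors' own value and was used only to rank peaks within a list. Read depth is unknown. The notes name human builds; coordinates were taken as mouse GRCm38, at whose gene ends 67.2% to 75.5% of the peaks lay in 3 lists, and are 1-based. The other lists check the build less, least that of knockout-Acsl4 2, with 5.29%.

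Genes came from RefSeq's GRCm38.p6 table, which holds gene starts and ends without exons, and strands from its promoter table. A peak marked a gene when at least 1 bp lay within 1000 bp of a gene end. Shares have exact Clopper-Pearson intervals. Groups were compared by two-sided exact permutation over libraries. Python 3.11.15, numpy 2.4.6, pandas 2.3.3, scipy 1.17.1 and matplotlib 3.10.9 were used, and the marking rule was checked on simulated peaks. The members and lists were chosen with earlier results of these data known. Genes named are those marked in 3 or more libraries, in 2 of 2 libraries of one group and 0 of 2 of the group compared, or in knockout-Acsl4, up to 4 more per complex, the alternative isoforms and their partners, genes of the other lists marked in 4 or more libraries, and Rictor, Acsl4 and Foxo1. Others were named after their values were seen, and 1 item is not reported here. Alternatives were a window of 3000 bp, the annotated start only, peak centres, the better 50% of each list, equal lists of 525 peaks, subunits without assembly factors, leaving out a library, pairing by number and, added after seeing the data, peaks at 1 gene only.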

Additional observations from a re-analysis of the deposited data

How the results depend on the processing

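The sign of the knockout-GFP minus control-GFP difference in members marked (7.73 points) turned to -2.06 without control-GFP 2, and its values with a library left out ran from -2.06 to 17.5. Those of knockout-Acsl4 minus knockout-GFP ran from -26.8 to -14.4, and those of knockout-Acsl4 minus control-GFP from -22.7 to -3.09. In the same order, the 3 differences were 1.55, -1.55 and 0 at equal list lengths, 3.09, -10.8 and -7.73 with the better 50% of each list, and 4.64, -9.28 and -4.64 with peaks at 1 gene only. The shares of all genes also differed between groups. With the better 50%, they were 0.434% and 1.22% in knockout-Acsl4 1 and 2 and 4.50% and 9.19% in knockout-GFP 1 and 2. In control-GFP 1 and 2 they were 9.54% and 1.25%. With peaks at 1 gene only, they were 0.667% and 1.27%, 5.20% and 11.5%, and 11.3% and 1.20% in the same libraries. Members marked in both knockout-GFP and neither control-GFP library numbered 2, and 1 with the better 50% of each list, 1 at equal list lengths, 0 with peaks at 1 gene only and 2 to 11 with a library left out, while the reverse count was 0, and 0 to 6. Members marked in both knockout-GFP and neither knockout-Acsl4 library numbered 8, and 4, 1, 3 and 8 to 25 under these settings. Members marked in both control-GFP and neither knockout-Acsl4 library numbered 2, and 1, 0, 0 and 2 to 21, and 1 with the annotated start only, since the promoter table has no entry for Uqcrb. Fewer peaks enter the shorter lists, leaving out a library loosens the pattern for every gene, and otherwise the cause was not tested. The shares of all genes with these patterns are not given here for the changed settings. With the replicate number as a paired block, the differences stayed at 7.73, -20.6 and -12.9 points, with exact sign-flip p of 1, 0.5 and 0.5, where 0.5 is the smallest possible. The labels do not say that equal numbers mark a shared animal or day, and the differences between replicates 1 and 2 correlated across 5357 genes at 0.08, -0.033 and 0.15 in the 3 comparisons. The wider window and peak centres changed the number of libraries marked of none of the 45 genes named by the rule. Depth is unknown, so the lack of a peak does not show closed chromatin.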

Other observations

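Away from gene ends, peaks lay inside Cox7a2 in both knockout-GFP libraries. Ndufa9, an accessory subunit of complex I, had a peak at chr6:126842009-126842209 in knockout-Acsl4 2, 7035 bp inside the gene from its annotated start, with a score of 2.66. It was the only peak of that library in any member. Ndufa9 had no peak in another library. With the annotated start in place of both gene ends, Cox7a2 joined Ndufs8 and Uqcr10 as a gene marked in both knockout-GFP libraries and neither control-GFP library.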
